A study of Mus musculus with 2 samples.

Results

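Efna3, Efna5, Efnb1, Efnb2 and Efnb3 encode ephrin ligands, and the 5 genes were taken by symbol from the 33696 genes counted in each library. Efna3 (ENSMUSG00000028039) and Efna5 (ENSMUSG00000048915) encode ligands of the A class, which are tethered to the outer membrane by a lipid anchor. Efnb1 (ENSMUSG00000031217), Efnb2 (ENSMUSG00000001300) and Efnb3 (ENSMUSG00000003934) encode ligands of the B class, which span the membrane and can signal back into the cell that carries them. Ephrins are read on contact by Eph receptor tyrosine kinases, A ligands mostly by EphA and B ligands mostly by EphB receptors, although ephrin-A5 also binds EphB2 and ephrin-B ligands also bind EphA4. Contact commonly repels a growing axon, and graded ephrins place axons along a target field. In the hippocampus the family is known for sorting afferent fibres into layers, for mossy fibre synapses and for dendritic spines.

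The series concerned how mossy fibres, the axons of dentate granule cells, are targeted to CA3 in mice that lack the transcriptional repressor Capicua (Cic). One single-nucleus RNA library came from hippocampi of Cicflox/flox mice and is the control. The other came from Emx1-Cre; Cicflox/flox mice and is labelled knockout, so that both groups carried the floxed alleles and only the second carried Cre. Emx1-Cre acts in the dorsal telencephalic lineage, which gives rise to hippocampal excitatory neurons and to part of the glia, but not to inhibitory neurons, microglia or vessels. All mice were at postnatal day 19, and each library pooled 3 mice, 2 males and 1 female. With 1 library per genotype there is no replicate error and no test. Intervals below are 95% intervals of counting error only, and differences between litters, dissections or captures cannot be told apart from genotype.

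The libraries held 25907 and 23207 barcodes, of which 175 were shared, and 21865 control and 20531 labelled knockout nuclei were used after removal of shallow nuclei and called doublets. The median was 9790 UMIs (unique molecules counted) per nucleus in the control and 8766 in the labelled knockout. Nuclei were clustered together and named from marker genes, which left 10.4% and 11.0% unnamed and gave 17 classes with at least 100 nuclei in each library. Counts of Cic itself did not separate the libraries in the labelled direction: dentate granule-like nuclei held 554 Cic UMIs in the control and 551 in the other library, or 9.35 against 12.96 CPM (UMIs of the gene scaled to a common total, as counts per 1e6 UMIs of the class). Where the deleted exons lie relative to the counted reads is not given in the sources used here, so this count does not check the deletion. Etv4, a textbook target of Cic repression, had 63 UMIs against 4796 in the same nuclei. It was also higher in the labelled knockout in classes outside the Emx1 lineage, at 2.15 and 8.80 CPM in inhibitory-like and 6.56 and 31.6 CPM in microglia-like nuclei, and the part of free RNA in this was not tested. In 3 classes the libraries filled different clusters. Dentate granule-like nuclei were mainly in cluster 2 in the control (72.0% of the class) and in cluster 3 in the labelled knockout (83.9%), CA1-like nuclei in clusters 9 and 8, and oligodendrocyte-like nuclei in clusters 11 and 14.

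Among the ligands that reached the minimum of UMIs and CPM given below, Efna5 differed most between the libraries, and its upstream sequence is shown for that reason. The 250 bases before the RefSeq start of Efna5 (GRCm38.p6, chr17:62881318-62881567, minus strand) read 5′ to 3′, all in lower case because no searched motif was present:
Efna5: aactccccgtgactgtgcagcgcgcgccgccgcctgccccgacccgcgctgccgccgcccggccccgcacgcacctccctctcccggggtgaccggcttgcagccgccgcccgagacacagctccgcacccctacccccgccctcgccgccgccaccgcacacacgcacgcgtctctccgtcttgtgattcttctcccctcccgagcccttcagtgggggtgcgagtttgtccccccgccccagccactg
The octamers searched were TCAATGAA, TCAATGGA, TGAATGAA and TGAATGGA, the forms that Capicua is known to bind, on both strands. Among the 5 upstream windows of the 4 ligands in the RefSeq table (Efna3 has more than 1; Efnb3 has none), 0 held an octamer, and 3.19% of 32851 windows of the same length did. The Efna5 window had 74.8% G and C, against a median of 52.4% over all windows.

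**Figure D1:**
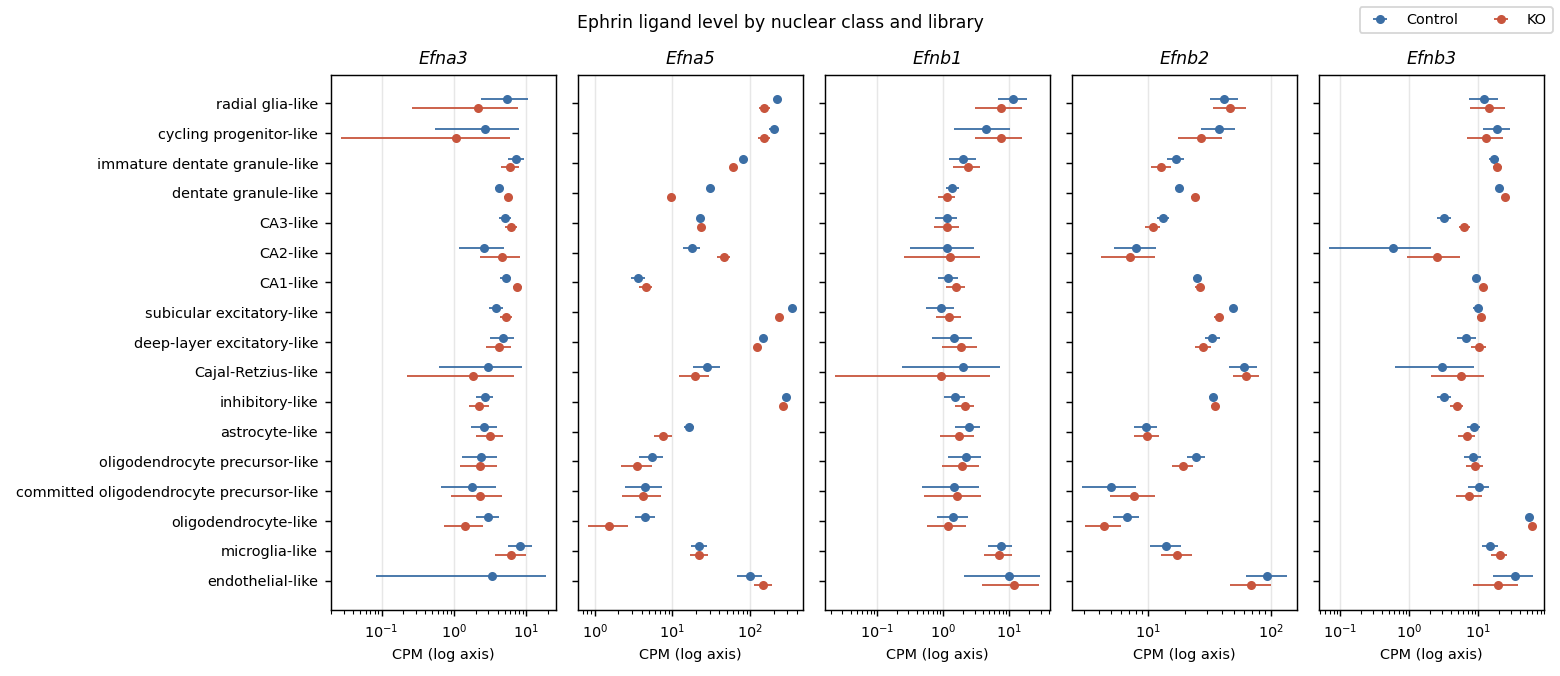
Level of each ligand gene (CPM, log axis) in 17 nuclear classes in the control (blue) and the library labelled knockout (red), with exact Poisson 95% intervals of 1 library each; a level of 0 is not drawn. Efna5 spans from 3.62 CPM in CA1-like to 346 CPM in subicular excitatory-like control nuclei. Its intervals in the libraries lie apart in dentate granule-like and CA2-like nuclei, and also in other classes such as subicular excitatory-like and astrocyte-like nuclei.

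Among the named classes, Efna5, a repellent cue best known from topographic maps, was at its highest in neurons outside the dentate and Ammon's horn classes. Unnamed clusters were not ranked, and some of those closest to CA3 or CA1 also had high levels, given below. In the control it stood at 346 CPM in subicular excitatory-like nuclei and 287 CPM in inhibitory-like nuclei, with intervals that did not overlap. Radial glia-like nuclei had 224 CPM, cycling progenitor-like nuclei 202 CPM, and deep-layer excitatory-like nuclei 146 CPM. Endothelial-like nuclei followed with 100.1 CPM from 30 UMIs, immature dentate granule-like nuclei with 81.1 CPM, and dentate granule-like nuclei with 30.9 CPM. Among neighbours in this order, radial glia-like and cycling progenitor-like nuclei had overlapping intervals, as did endothelial-like nuclei with the deep-layer excitatory-like and the immature class on either side. Intervals also overlapped among dentate granule-like, Cajal-Retzius-like, CA3-like, microglia-like, CA2-like and astrocyte-like nuclei from each to the next. CA1-like nuclei had the lowest level, 3.62 CPM, and its interval overlapped that of the nearest of the oligodendrocyte classes, which stood at 4.43 to 5.41 CPM. In the library labelled knockout, inhibitory-like nuclei came first with 268 CPM and subicular excitatory-like nuclei second with 234 CPM, and these intervals were apart too.

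In dentate granule-like nuclei, the cells whose axons are the mossy fibres, Efna5 was lower in the library labelled knockout. The control held 1828 Efna5 UMIs in 4924 nuclei, a level of 30.9 CPM, and the labelled knockout 411 UMIs in 3906 nuclei, a level of 9.67 CPM. The log2 ratio (labelled knockout over control) was -1.67, with an interval from -1.83 to -1.52. A gene was counted as apart when it differed 2-fold or more and its higher level rested on 50 UMIs or more and was 10 CPM or above. By this rule 2.99% of the 8465 genes with that minimum in dentate granule-like nuclei were apart, 165 higher and 88 lower in the labelled knockout. Efna5 was 1 of the 88, and the only one of the 3 ligands with the minimum there (Efna5, Efnb2 and Efnb3).

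Fewer granule nuclei carried any Efna5 molecule, and those that did carried fewer, a mean of 2.06 in the control and 1.63 in the labelled knockout. Efna5 was detected in 18.0% of control and 6.45% of labelled knockout dentate granule-like nuclei, at median depths of 11528 and 10438.5 UMIs. Nuclei with 3 or more UMIs numbered 243 in the control (4.94%, interval 4.35 to 5.58%) and 36 in the labelled knockout (0.922%, 0.646 to 1.27%). The share in microglia-like nuclei, which served as the background level of free RNA, was 3.18% and 2.40% at median depths of 2158 and 1730 UMIs. After each nucleus was thinned to 2000 UMIs, which left out 5 and 8 granule nuclei and 672 and 966 microglia-like nuclei, the granule share was 5.39% in the control and 1.49% in the labelled knockout. The thinned microglia-like shares were 2.99% and 2.81%. At matched depth the control granule share therefore lay above the microglia-like share, and the labelled knockout share, 1.49% (1.13 to 1.92%), lay below it with overlapping intervals (2.81%, 1.58 to 4.60%). Per nucleus and without matching depth, granule nuclei had 7.34 times the microglia-like number of Efna5 UMIs in the control and 2.63 times in the labelled knockout. The 2 measures thus place the labelled knockout on different sides of the microglia-like level. The microglia-like share was not a floor common to all classes, since CA1-like nuclei had thinned shares of 0.695% and 0.555%.

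**Figure D2:**
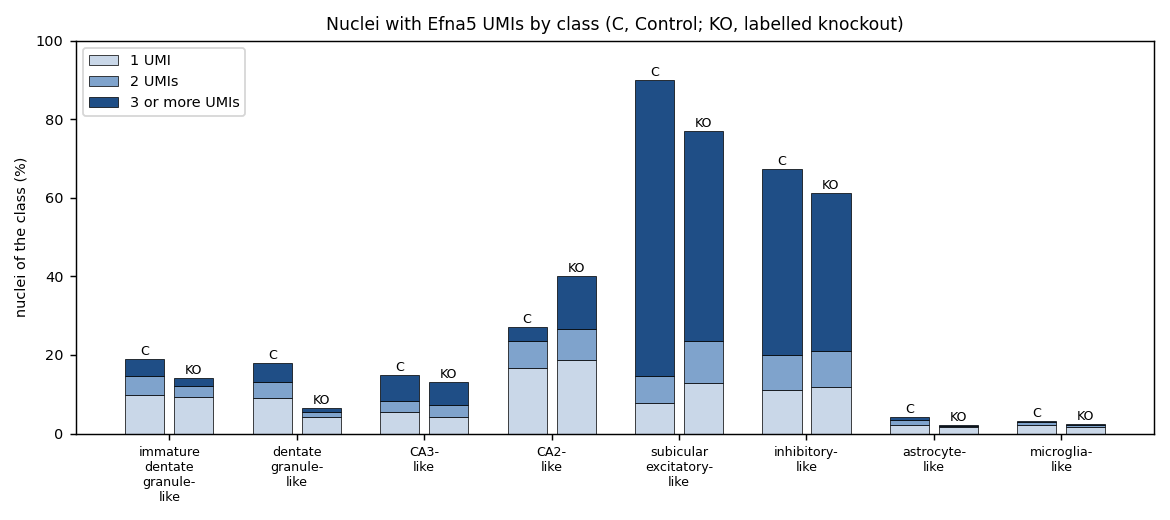
Share of nuclei of 8 classes with 1, 2, or 3 or more Efna5 UMIs (stacked bars, percent of the class, not corrected for depth) in the control (C) and the library labelled knockout (KO). The dentate granule-like bars reach 18.0% and 6.45%, and the microglia-like bars 3.18% and 2.40%.

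Within the granule class, cluster 2 had 35.2 CPM in its 3543 control nuclei and cluster 3 had 9.83 CPM in its 3278 labelled knockout nuclei. The few nuclei of the opposite library in each cluster carried little weight. The 68 control nuclei of cluster 3 had 11 Efna5 UMIs (12.5 CPM), and the 24 labelled knockout nuclei of cluster 2 had 5 UMIs (15.6 CPM), with ratio intervals that included 0 in both. Cluster 6 held nuclei of both libraries, 1313 and 604, and its Efna5 was 17.2 CPM against 8.05 CPM, a log2 ratio of -1.08 (-1.62 to -0.60). Clustering without the ephrin and Eph genes gave -1.68 for the class.

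Nuclei of each library were also split by Xist and Y-linked UMIs into those of the 1 female and those of the 2 males, and nuclei with neither pattern were left out. Efna5 in female dentate granule-like nuclei was 26.7 CPM against 8.74 CPM, a log2 ratio of -1.61 (-1.91 to -1.32). In male nuclei it was 32.3 CPM against 10.7 CPM, a log2 ratio of -1.60 (-1.82 to -1.38). Levels in both sexes were thus lower in the labelled knockout, by ratios whose intervals overlapped. The mice shared a library, so these are not replicates.

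Levels of cell type markers also differed in the same nuclei. Of the 24 marker sets, 10 had a higher and 14 a lower summed level in the labelled knockout, with log2 ratios from -1.13 (CA1) to 2.55 (Cajal-Retzius). The summed level of the 7 dentate granule markers was 3775 CPM in the control and 2836 CPM in the labelled knockout, with 6 of 7 lower. The 7 CA1 markers summed to 160 and 73.0 CPM (6 of 7 lower), the 7 Cajal-Retzius markers, which include Reln, to 7.83 and 45.8 CPM (6 of 7 higher), the 5 subicular markers to 25.2 and 39.7 CPM (5 of 5 higher) and the 7 inhibitory markers to 1561 and 1962 CPM (3 of 7 higher), with no marker of these sets at 0. Reln, given again below, made up most of the Cajal-Retzius sum in the labelled knockout and had a log2 ratio of 3.31. Glial sets were lower: the 6 astrocyte markers summed to 1184 and 921 CPM (6 of 6 lower), the 7 oligodendrocyte markers to 193 and 149 CPM (6 of 7 lower) and the 7 microglia markers to 80.0 and 64.9 CPM (7 of 7 lower). The 6 intermediate progenitor or neuroblast markers summed to 35.1 and 58.5 CPM (3 of 6 higher), and the 6 choroid plexus markers (Htr2c among them), of which 1 was at 0 in each library, to 8.53 and 33.9 CPM (3 of 6 higher). Their part in the Efna5 result was not tested.

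Radial glia-like, cycling progenitor-like and immature dentate granule-like nuclei had more Efna5 than dentate granule-like nuclei, and smaller ratios. The cycling class was named from cell cycle markers, and its lineage was not determined. Radial glia-like nuclei, named after the stem cells of the granule lineage, had 332 UMIs (224 CPM) in the control. The labelled knockout had 142 UMIs (153 CPM), a log2 ratio of -0.55 (-0.84 to -0.26). Cycling progenitor-like nuclei had 202 and 150 CPM, a log2 ratio of -0.43 (-0.74 to -0.12). That value was -0.11 when the ephrin and Eph genes were left out of the clustering and -0.07 in male nuclei. Immature dentate granule-like nuclei had 761 UMIs (81.1 CPM) and 517 UMIs (60.9 CPM), a log2 ratio of -0.41 (-0.58 to -0.25). All 3 intervals lay below 0 and none of the ratios reached 2-fold. The background shares past the 2-fold rule were 0.829%, 0.831% and 0.323% of genes in these 3 classes. The interval of the immature class did not overlap that of the dentate granule-like class, although the difference between classes has no replicate check.

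In CA3-like nuclei, the target field of the mossy fibres, the summed Efna5 levels were alike: 545 UMIs (22.9 CPM) in the control and 460 UMIs (23.3 CPM) in the labelled knockout. The log2 ratio was 0.02 (-0.16 to 0.21), in a class in which 1.97% of genes were apart and neither Efna5 nor Efnb2, the 2 ligands with the minimum, was among them. Few nuclei made up these sums. The 16 control and 13 labelled knockout nuclei with 10 or more UMIs held 40.4% and 39.1% of all Efna5 UMIs of the class. The value moved accordingly, to -0.91 with a minimum of 1000 genes per nucleus, to -0.40 with called doublets kept and to 0.27 as the mean of per-nucleus CPM. Cluster 23, closest to CA3 but left unnamed (leading genes include Col6a1, Scn7a and Htr2c), had Efna5 at 317 CPM in 299 control and 228 CPM in 284 labelled knockout nuclei, a log2 ratio of -0.48 (-0.59 to -0.37).

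In CA2-like nuclei the order was the opposite, with Efna5 higher in the library labelled knockout. The control held 62 UMIs in 144 nuclei (17.7 CPM) and the labelled knockout 110 UMIs in 117 nuclei (46.1 CPM), a log2 ratio of 1.38 (0.92 to 1.85). In this class 3.48% of genes were apart, and Efna5 was the only ligand with the minimum. It was detected in 27.1% and 40.2% of nuclei at median depths of 24421 and 19777 UMIs, and 3 or more UMIs were present in 5 nuclei of the control (3.47%) and 16 of the labelled knockout (13.7%). Per nucleus and without matching depth, Efna5 was 8.52 times the microglia-like number of UMIs in the control and 23.5 times in the labelled knockout. Scaled to the UMIs of the class, the control level of 17.7 CPM lay below the microglia-like 22.2 CPM, with overlapping intervals. The labelled knockout level of 46.1 CPM lay above the microglia-like 22.0 CPM. A single random draw of 2000 UMIs per nucleus kept 0 of the 62 control UMIs and 11 of the 110 labelled knockout UMIs, and nothing is read from it. The log2 ratio was 1.10 (0.26 to 2.00) in female and 1.15 (0.44 to 1.89) in male nuclei. Of the 24 marker sets, 16 had a higher and 8 a lower summed level in the labelled knockout in these nuclei. Subicular markers, of which 0 of 5 were at 0 in either library, summed to 5.14 and 15.1 CPM, dentate granule markers to 212.9 and 337.4 CPM (3 of 7 higher) and astrocyte markers to 105.1 and 65.0 CPM (4 of 6 lower). Their part in the result was not tested.

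CA1-like nuclei had little Efna5, 106 UMIs (3.62 CPM) in the control and 107 UMIs (4.58 CPM) in the labelled knockout. Per nucleus this was 1.33 and 1.85 times the microglia-like level, and the thinned shares of 0.695% and 0.555% lay under the microglia-like ones. In this class 4.5% of genes were apart, and Efnb2 and Efnb3, the 2 ligands with the minimum, were not among them. The low level depended on which clusters were called CA1-like. Cluster 17, closest to CA1 but unnamed, had 232 and 216 CPM, and cluster 10 had 27.3 and 35.4 CPM. At a clustering resolution of 2, the CA1-like nuclei held 1418 and 911 Efna5 UMIs, a log2 ratio of -0.20.

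Efna5 was abundant in subicular and deep-layer excitatory-like nuclei, and its summed level in each class was somewhat lower in the labelled knockout. Subicular excitatory-like nuclei held 7069 UMIs (346 CPM) in the control and 4314 UMIs (234 CPM) in the labelled knockout, a log2 ratio of -0.56 (-0.62 to -0.51). The gene was detected in 89.9% and 77.1% of these nuclei, 41.0% and 31.1% after thinning. Clusters 13 and 22 both had a lower level in the labelled knockout, 314 against 204 CPM and 427 against 346 CPM. Without cluster 35, which held 4 control and 66 labelled knockout nuclei, the log2 ratio of the class was -0.49, and with called doublets kept it was -0.36. In these nuclei deep-layer markers summed to 1885 and 1556 CPM (5 of 6 lower), inhibitory markers to 38.6 and 63.0 CPM (6 of 7 higher) and immature dentate granule markers to 103.6 and 162.8 CPM (4 of 6 higher), with no marker of these sets at 0. Their part in the Efna5 ratio was not tested. Deep-layer excitatory-like nuclei had 146 and 121 CPM, a log2 ratio of -0.27 (-0.41 to -0.13), which was 0.14 in male nuclei. The shares of genes apart were 2.14% and 1.91% in these 2 classes, and 0 of the 3 ligands with the minimum in each was apart.

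Inhibitory-like nuclei, which arise outside the Emx1 lineage, held 6021 UMIs (287 CPM) and 4927 UMIs (268 CPM), a log2 ratio of -0.10 (-0.16 to -0.05). Cluster 12, with Lhx6 and Crhbp among its leading genes, had 397 and 398 CPM. Cluster 18, with Adarb2 and Vip, had 107 and 80.2 CPM, and cluster 24, with Hapln1 and Lhx6, had 261 and 243 CPM. The ratio of the whole class was 0.07 in female and -0.17 in male nuclei. Only 0.0912% of genes were apart in inhibitory-like nuclei, and 0 of 2 ligands with the minimum was.

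Astrocyte-like nuclei had 155 Efna5 UMIs (16.4 CPM) in the control and 58 (7.66 CPM) in the labelled knockout, a log2 ratio of -1.09 (-1.56 to -0.65). Efna5 passed the 2-fold rule in a class in which 0.233% of genes did, as the only ligand with the minimum. However, it was detected in 4.22% and 2.26% of these nuclei, at median depths of 4591 and 4112 UMIs. The thinned shares of 2.21% and 1.42% lay below the microglia-like 2.99% and 2.81% in both libraries, with overlapping intervals in each. Per nucleus, Efna5 was 1.52 and 0.799 times the microglia-like number of UMIs. The summed microglia-like level was alike in the libraries, 22.2 and 22.0 CPM, but not within each sex. It was 23.6 and 7.75 CPM in male nuclei, from 28 and 6 UMIs, and 20.7 and 32.4 CPM in female nuclei. The part of free RNA in the astrocyte-like difference was not tested. In female astrocyte-like nuclei the ratio was -0.66 (-1.43 to 0.06), in male astrocyte-like nuclei -1.30 (-2.12 to -0.59).

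**Figure D3:**
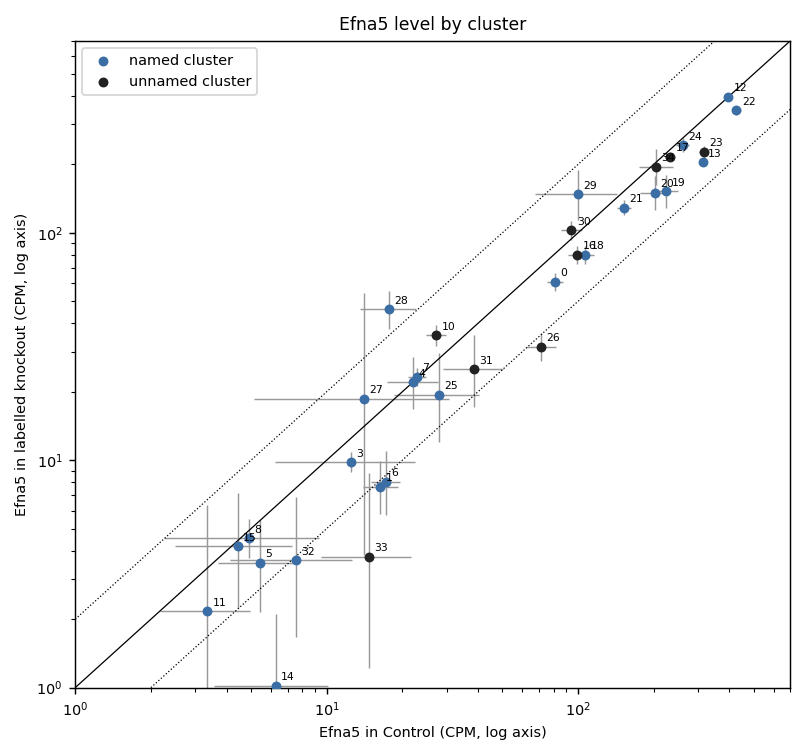
Efna5 level of each cluster with at least 50 nuclei in each library, control (horizontal, CPM, log axis) against the library labelled knockout (vertical, CPM, log axis), with Poisson intervals; numbers are cluster numbers, the solid line marks equal levels and dotted lines mark 2-fold. Of 33 clusters, 25 lie below the line of equality and 6 above it, and cluster 28 (CA2-like) lies above the upper dotted line. Cluster 2 (72.0% of control and 0.614% of labelled knockout dentate granule-like nuclei) is under the minimum and not drawn. The same holds for cluster 9 (93.1% and 0.971% of CA1-like nuclei). Cluster 3 is drawn with 1.38% of the control dentate granule-like nuclei.

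Across the clusters with at least 50 nuclei in each library, Efna5 had a ratio interval below 0 in 15 of 33 and above 0 in 2 of 33, namely CA2-like cluster 28 and unnamed cluster 10. This minimum left out clusters 2 and 9, the main control clusters of the dentate granule-like and CA1-like classes. Unnamed cluster 26, led by Unc13c, Cpa6 and Hmcn1, had 71.5 CPM in the control and 31.5 CPM in the labelled knockout, a log2 ratio of -1.18 (-1.47 to -0.89). Unnamed cluster 33, led by C1qtnf7 and Dcn, had 25 against 5 UMIs. Over the 17 classes, the Efna5 interval lay below 0 in 9 and above 0 in 1. The share of all genes with an interval that excluded 0 was not counted. These numbers of clusters and classes therefore have no background beside them.

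In the remaining classes Efna5 rested on 78 UMIs or fewer per library. Microglia-like nuclei had 78 UMIs (22.2 CPM) and 60 UMIs (22.0 CPM), a log2 ratio of -0.01 (-0.52 to 0.49). That ratio was -1.51 (-3.17 to -0.30) in male nuclei, from 28 and 6 UMIs, and 0.63 (-0.30 to 1.62) in female nuclei. In the microglia-like class 1.42% of genes were apart and 0 of 2 ligands with the minimum was. Endothelial-like nuclei, a cluster whose leading genes also included the mural and fibroblast genes Atp13a5 and Slc6a13, had 30 and 62 UMIs (100.1 and 148 CPM), a log2 ratio of 0.55 (-0.09 to 1.24), with 5.56% of genes apart. Oligodendrocyte-like nuclei had 47 and 13 Efna5 UMIs, under the minimum and 0.652 and 0.308 times the microglia-like number per nucleus. Their log2 ratio was -1.50 (-2.55 to -0.63) and ran from -1.93 to -0.25 over 10 alternatives. The oligodendrocyte precursor-like, committed precursor-like and Cajal-Retzius-like classes had 13 to 32 Efna5 UMIs per library.

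Efna3, the other A-class gene among the 5, which on astrocytes is known to bind EphA4 on dendritic spines, did not reach the minimum in any of the 17 classes. Its levels in the control ran from 1.77 CPM in committed oligodendrocyte precursor-like to 8.27 CPM in microglia-like nuclei, and every class overlapped the next in order. Dentate granule-like nuclei held 250 UMIs (4.22 CPM) and 240 UMIs (5.64 CPM), a log2 ratio of 0.42 (0.16 to 0.68). CA1-like nuclei held 152 and 176 UMIs (5.19 and 7.53 CPM), a log2 ratio of 0.54 (0.22 to 0.86), which was 0.19 in male nuclei. Subicular excitatory-like nuclei had a ratio of 0.46 (0.02 to 0.91), and oligodendrocyte-like nuclei one of -1.02 (-2.15 to -0.05) from 31 and 12 UMIs, which was 0.07 with called doublets kept. Thinned shares were 0.874% and 1.15% in dentate granule-like, 0.948% and 1.46% in CA1-like and 0.602% and 0.925% in subicular excitatory-like nuclei, against 1.15% and 0.938% in microglia-like nuclei. All 3 control shares lay below the microglia-like share, as did the subicular share in the labelled knockout, and the intervals of the other two overlapped the microglia-like interval. Per nucleus, without matching depth, Efna3 was above the microglia-like number of UMIs, 2.70 and 5.42 times in dentate granule-like, 5.11 and 10.8 times in CA1-like and 4.98 and 9.89 times in subicular excitatory-like nuclei. Efna3 overlaps Gm15998 on the opposite strand, and reads from the pair may not be told apart.

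Efnb1, an X-linked B-class ligand whose loss is known to affect craniofacial patterning, was the least captured. It had at most 82 UMIs in a class, never reached the minimum, and its ratio interval included 0 in each of the 16 classes with a ratio. Radial glia-like nuclei had 17 and 7 UMIs (11.5 and 7.54 CPM), and dentate granule-like nuclei 82 and 49 UMIs (1.38 and 1.15 CPM). A change smaller than these intervals, such as -0.81 to 0.26 in dentate granule-like nuclei, was not detectable at this depth.

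**Figure D4:**
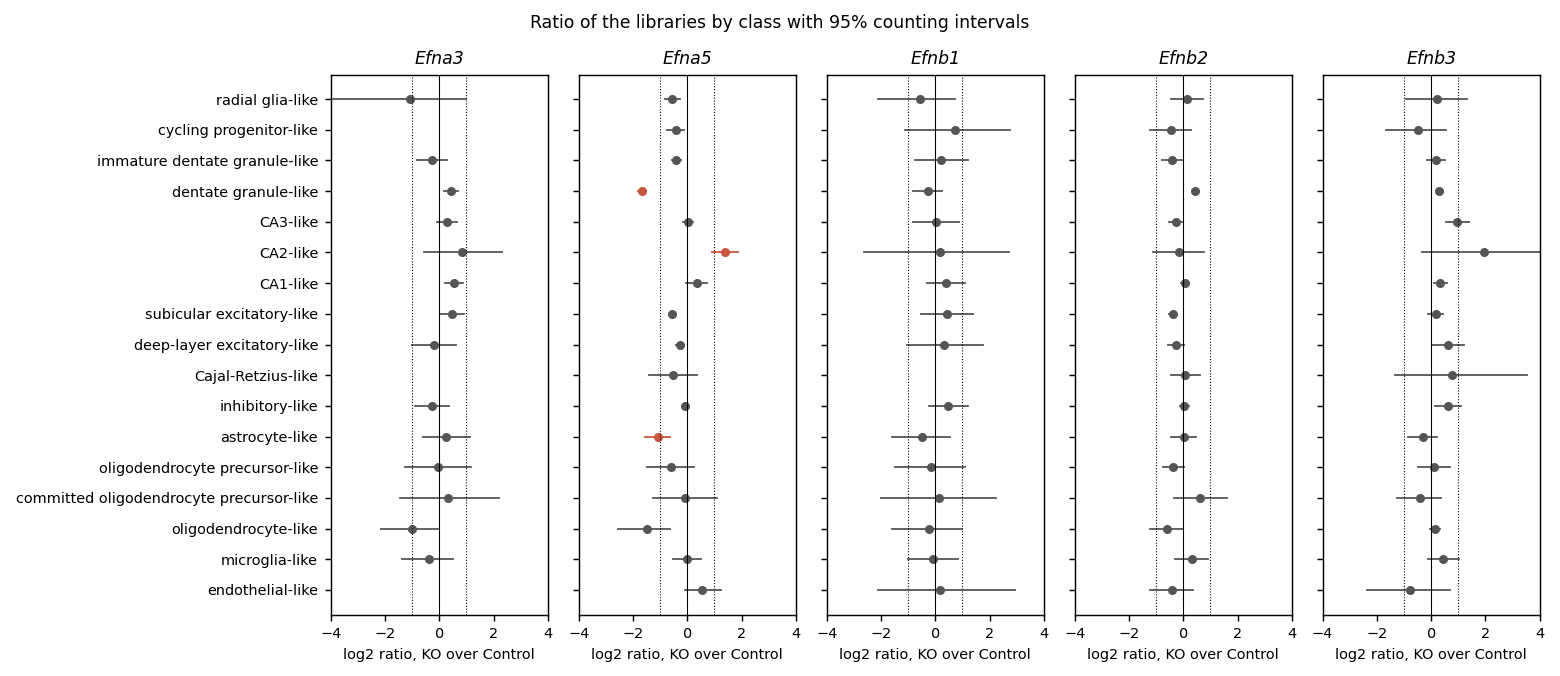
Log2 ratio of the library labelled knockout over the control for each ligand in 17 classes, with exact conditional binomial 95% intervals (cut at 4 and -4); red marks ratios past the 2-fold rule with the minimum met, dotted lines mark 2-fold. The red points are Efna5 in dentate granule-like (-1.67), CA2-like (1.38) and astrocyte-like (-1.09) nuclei.

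Efnb2, best known as the ligand of arterial endothelium and also found at excitatory synapses, was broadly present. Its control levels were highest in endothelial-like nuclei (93.5 CPM from 28 UMIs), Cajal-Retzius-like nuclei (59.9 CPM from 60 UMIs) and subicular excitatory-like nuclei (49.1 CPM), with overlapping intervals from each to the next. Dentate granule-like nuclei held 1049 UMIs (17.7 CPM) in the control and 1022 UMIs (24.0 CPM) in the labelled knockout. This log2 ratio, 0.44 (0.31 to 0.57), was positive in a class in which Efna5 had a negative one, and it was 0.57 (0.35 to 0.80) in female and 0.36 (0.18 to 0.54) in male nuclei. Efnb2 was detected in 17.0% and 20.5% of these nuclei, 3.38% and 4.57% after thinning, against 1.61% and 1.88% in thinned microglia-like nuclei.

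Outside the granule class, the Efnb2 interval lay below 0 in 4 classes and included 0 in the other 12, again without a background share. Immature dentate granule-like nuclei had 159 against 109 UMIs, a log2 ratio of -0.40 (-0.77 to -0.04), which was -1.17 after subtraction of the microglia-like level per nucleus and -0.10 at a clustering resolution of 2. Oligodendrocyte-like nuclei had 70 and 37 UMIs (6.70 and 4.40 CPM, under the minimum), a log2 ratio of -0.60 (-1.22 to -0.01), which was -2.20 after that subtraction and 0.00 with called doublets kept. CA3-like nuclei had 316 and 216 UMIs (13.3 and 10.9 CPM), a log2 ratio of -0.28 (-0.54 to -0.03), which was -0.57 with a minimum of 1000 genes and -0.02 in female nuclei. Subicular excitatory-like nuclei had 1002 and 690 UMIs (49.1 and 37.5 CPM), a log2 ratio of -0.39 (-0.53 to -0.25). CA1-like nuclei had 738 and 614 UMIs (25.2 and 26.3 CPM) and inhibitory-like nuclei 712 and 644 UMIs (33.9 and 34.97 CPM), with log2 ratios of 0.06 (-0.10 to 0.22) and 0.04 (-0.11 to 0.20). Oligodendrocyte precursor-like nuclei had 24.7 and 19.3 CPM and Cajal-Retzius-like nuclei 59.9 and 62.9 CPM, in classes in which 0.19% and 1.44% of genes were apart and Efnb2, the only ligand with the minimum, was not.

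Efnb3, known as a midline barrier for corticospinal axons and as a ligand on myelin that limits axon growth, had its highest level in oligodendrocyte-like nuclei. Their control interval overlapped that of the next class, endothelial-like nuclei with 33.4 CPM from 10 UMIs. The oligodendrocyte-like nuclei held 561 UMIs (53.7 CPM) in the control and 494 UMIs (58.8 CPM) in the labelled knockout, a log2 ratio of 0.13 (-0.05 to 0.31). In this class 3.9% of genes were apart, and Efnb3, the only ligand with the minimum, was not. It was 0.09 without cluster 27, whose nuclei were shallow. The precursor classes had less in the control, 8.28 CPM in oligodendrocyte precursor-like and 10.1 CPM in committed oligodendrocyte precursor-like nuclei, and in the latter class 1.34% of genes were apart while 0 of 5 ligands had the minimum. Dentate granule-like nuclei held 1181 UMIs (19.9 CPM) and 1043 UMIs (24.5 CPM) of Efnb3, a log2 ratio of 0.30 (0.18 to 0.42). Their thinned shares were 4.35% (3.80 to 4.96%) and 5.03% (4.36 to 5.76%), against 1.95% (1.14 to 3.11%) and 4.32% (2.76 to 6.41%) in microglia-like nuclei. After thinning, only the control share was thus clear of the microglia-like interval, and 966 microglia-like nuclei of the labelled knockout were left out. Without matching depth, detection was 20.3% and 22.6%, against 3.24% and 3.60% in microglia-like nuclei. The granule nuclei then had 7.12 and 7.28 times the microglia-like number of Efnb3 UMIs per nucleus.

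Efnb3 in CA3-like nuclei had 76 UMIs (3.19 CPM) in the control and 123 UMIs (6.22 CPM) in the labelled knockout. The log2 ratio of 0.96 (0.54 to 1.40) was under 2-fold and the level under 10 CPM, so the gene was not counted as apart. It was detected in 7.35% and 11.9% of CA3-like nuclei, at median depths of 24342 and 21355 UMIs. After thinning it was detected in 0.630% and 1.12%, against 1.95% and 4.32% of thinned microglia-like nuclei. Both thinned shares lay below that level, with overlapping intervals in the control and separate ones in the labelled knockout. Per nucleus, without matching depth, Efnb3 was 2.37 and 3.74 times the microglia-like number of UMIs. The ratio was 1.16 (0.45 to 1.89) in female and 0.72 (0.07 to 1.40) in male nuclei. In CA3-like nuclei the Cajal-Retzius markers summed to 7.39 and 21.7 CPM (7 of 7 higher), the subicular markers to 12.7 and 30.9 CPM (4 of 5 higher), the CA1 markers to 130.4 and 200.9 CPM (6 of 7 higher) and the choroid plexus markers, with 1 of 6 at 0 in each library, to 70.0 and 227.5 CPM. The choroid plexus set includes Htr2c, also a leading gene of the unnamed cluster closest to CA3, and the part of each gene in the sum was not separated. The CA3 markers themselves summed to 1752 and 1654 CPM, and the part of the other sets in the Efnb3 ratio was not tested. In CA1-like, inhibitory-like and deep-layer excitatory-like nuclei, Efnb3 ratios were 0.34 (0.09 to 0.58), 0.61 (0.14 to 1.09) and 0.60 (0.02 to 1.20), and the CA1-like value was -0.04 after thinning. The inhibitory-like value rested on 67 and 90 UMIs (3.19 and 4.89 CPM), under the minimum. Thinned shares there, 0.785% and 0.837%, lay below the microglia-like ones. Per nucleus, without matching depth, inhibitory-like nuclei had 1.73 and 2.05 times the microglia-like number of Efnb3 UMIs. Over the 17 classes the Efnb3 interval lay above 0 in 5 and below 0 in 0, again without a background share. The CA3-like and inhibitory-like values, both under the minimum, are among the 5.

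The receptors that read these ligands were described from lists of 9 EphA and 5 EphB genes. Of the 9 EphA genes, 6 had the minimum in dentate granule-like nuclei, 0 were higher and 1 was lower by 2-fold or more, and their median log2 ratio was -0.20, against 0.02 over all genes with the minimum. The lower one was Epha10, an EphA receptor without kinase activity, with 2438 UMIs (41.2 CPM) in the control and 415 UMIs (9.76 CPM) in the labelled knockout, a log2 ratio of -2.08 (-2.23 to -1.93). Of the EphB genes, 2 of 5 had the minimum and 1 was higher, in a class in which 2.99% of all genes were apart. Ephb1, a main receptor of B-class ligands, had 6561 UMIs (110.8 CPM) and 18735 UMIs (440.6 CPM), a log2 ratio of 1.99 (1.95 to 2.03). Granule nuclei of the labelled knockout thus had less Efna5 and Epha10 and more Ephb1 message. Ephb1 overlaps Gm29388 on the same strand and 9630041A04Rik on the other, and Epha10 overlaps 1700125G02Rik on the other strand, so reads may be shared.

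**Figure D5:**
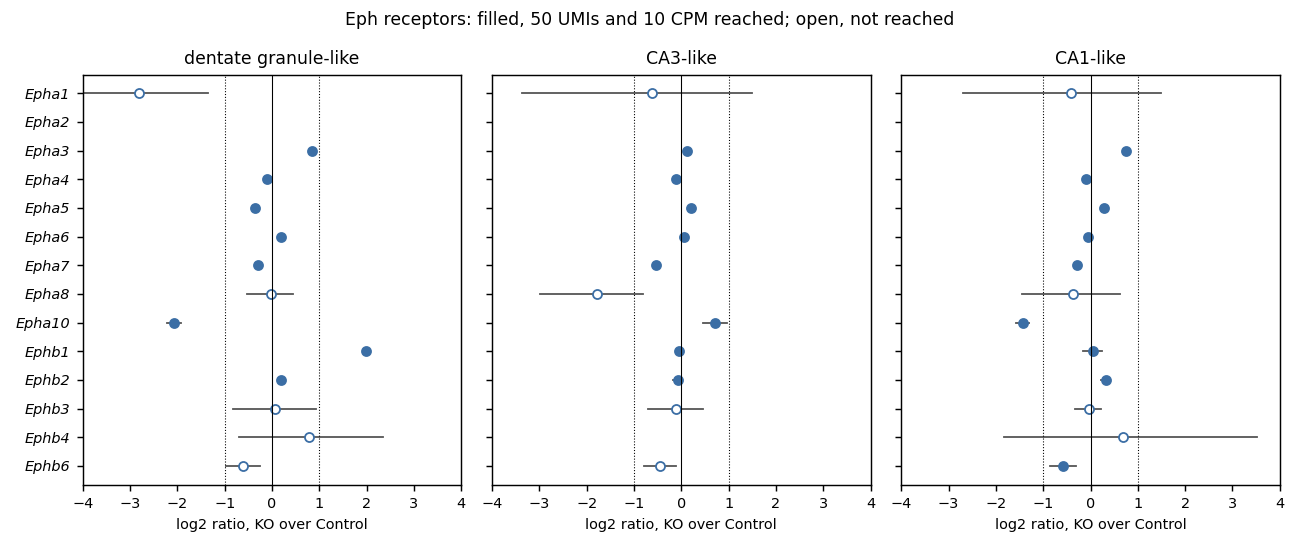
Log2 ratio (labelled knockout over control) of 14 Eph receptor genes with counting intervals, in panels for the granule, CA3 and CA1 classes; filled points had 50 UMIs and 10 CPM in the higher library, open points did not, and genes at or under 3 UMIs in both libraries are not drawn. Filled points past the dotted 2-fold lines are Epha10 and Ephb1 in dentate granule-like and Epha10 in CA1-like nuclei.

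In CA3-like nuclei 0 of 6 EphA and 0 of 2 EphB genes with the minimum were apart, with medians of 0.09 and -0.06 against 0.07 over all genes, of which 1.97% were apart. Epha10 was there 9.36 and 15.3 CPM, a log2 ratio of 0.71 (0.45 to 0.96). Epha7, an EphA receptor with a truncated form known to alter contact responses, was 672 and 467 CPM, a log2 ratio of -0.53 (-0.56 to -0.49). In CA1-like nuclei 1 of 6 EphA genes was apart and 0 of 3 EphB genes, with medians of -0.07 and 0.05 against 0.09 over all genes, of which 4.5% were apart. Epha10 had 69.3 CPM in the control and 25.7 CPM in the labelled knockout, a log2 ratio of -1.43 (-1.57 to -1.30). Epha4, which binds both ligand classes, was level within 0.11 on the log2 scale in all 3 classes, at -0.10, -0.11 and -0.09.

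Outside these 3 classes 5 further receptor values passed the rule, named here after their values were seen. Epha10 was lower in CA2-like nuclei (log2 ratio -1.58), as 1 of 6 EphA genes with the minimum, where 3.48% of all genes were apart. Epha6 and Epha7 were lower in oligodendrocyte-like nuclei (-1.27 and -1.01), 2 of 5 EphA genes with the minimum, against 3.9% of all genes. Ephb1, the only EphB gene with the minimum in microglia-like nuclei, was lower there (-1.10), against 1.42% of all genes. Epha3 was higher in committed oligodendrocyte precursor-like nuclei (1.89), 1 of 5 EphA genes with the minimum, against 1.34% of all genes. The other ephrin genes, Efna1, Efna2 and Efna4, had the minimum in 0 of the 17 classes.

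Genes that act below or beside the receptors were taken from 3 further lists. The forward effectors were exchange factors, GTPase activators, kinases, adaptors and the GTPase Rhoa. Of these 23 genes, the minimum was reached by 21 in dentate granule-like nuclei, by 19 in the CA3-like class and by 21 in the CA1-like class. Of these 0, 0 and 1 were apart, with medians of -0.13, 0.04 and 0.09. Over all genes with the minimum in these classes, 2.99%, 1.97% and 4.5% were apart, with medians of 0.02, 0.07 and 0.09, so that 1 of 21 in CA1-like nuclei was near the background share. The 1 was Tiam2, a Rac exchange factor, with 3.31 and 11.9 CPM in CA1-like nuclei (log2 ratio 1.84). Of 11 reverse signalling and PDZ partners, 6, 8 and 5 had the minimum and 0 were apart, with medians of 0.09, 0.24 and -0.06. Of 13 cleavage, dephosphorylation and cis partners, 9, 8 and 8 had the minimum, and 1, 0 and 2 were higher by the rule, with medians of 0.20, 0.11 and 0.16. These were Reln, a secreted guidance protein, at 3.50 and 34.8 CPM in dentate granule-like nuclei (3.31), and in CA1-like nuclei Ptpro, a phosphatase of Eph receptors, at 31.6 and 115.7 CPM (1.87) and Fgfr1 at 43.7 and 88.6 CPM (1.02).

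Across the 34 points given by 17 classes and both libraries, the genes closest to each ligand by Pearson correlation of log2(CPM + 1) were taken from 16697 genes. Efna5 was closest to Ccdc136 (r = 0.783), Pnpt1 (0.779) and Socs2 (0.757), and Efnb2 to Prkci (0.835), Mapkbp1 (0.799) and Ahctf1 (0.789). Efnb3 was closest to Efna1 (0.794), Kctd13 (0.777) and Sypl (0.775), Efna3 to Vipr1 (0.772), Trmt1 (0.750) and Lmln (0.733), and Efnb1 to Tgif1 (0.912), Ranbp2 (0.891) and Chd1 (0.891). The points share libraries, depth and cell lineages, and the values are descriptions only.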

How the data were processed

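Hippocampal nuclei of postnatal day 19 mice were profiled with 10x Genomics 3′ chemistry, 1 library per genotype. The matrices deposited by the authors give UMI counts as whole numbers, 1 value for each gene in each nucleus and not normalized. The submitters' processing notes name Cell Ranger 8.0.1 and mm39. No column lacked a sample. The counting total was 314453640 UMIs in the control and 252995761 in the labelled knockout.

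Nuclei with under 500 genes or over 5% mitochondrial UMIs were removed, as were doublets called per library with Scrublet (scanpy 1.11.5, 0.1 as the rate expected; 12.8% and 10.9% of nuclei). Clustering used 3000 variable genes without mitochondrial, Xist, Tsix and Y-linked genes, 30 components, 15 neighbours and Leiden resolution 1 (leidenalg 0.10.2, igraph 0.11.9, Python 3.11.15, scipy 1.17.1, numpy 2.4.6). A cluster was matched to the marker set with the highest mean log2 difference over all its markers. That mean had to reach 0.5, with at least 3 markers raised and detected in 10% of nuclei or more. A cluster stayed unnamed if more of its leading genes belonged to another set. It also stayed unnamed if it was shallow and none of its leading genes was a marker of its set. UMIs were summed per class and library. Levels are CPM with exact Poisson intervals, ratios have exact conditional binomial intervals, and shares have Clopper-Pearson intervals. The log2 ratio used a prior of 0.5 UMIs. No ratio was given where both libraries had 3 UMIs or fewer. Because there is 1 library per group, no test was made and genes were counted by size (2-fold, 50 UMIs and 10 CPM in the higher library). The script was tested on simulated data. Female nuclei had at least 2 Xist UMIs and no Y-linked UMI, male nuclei the reverse pattern.

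The ligands and gene lists were chosen with earlier results of these data known. Named were all 5 ligands in every class, and list genes past the 2-fold rule in dentate granule-like, CA3-like or CA1-like nuclei. The remaining receptor values shown were chosen after they were seen. Upstream windows came from RefSeq (GRCm38.p6). A GENCODE annotation of GRCm38, which held 94.8% of the identifiers, gave gene overlaps only, and no mm39 positions are printed. Alternatives covered size factors, per-nucleus means, doublets, gene minimum, clustering without the family, resolution 2, sex, thinning, subtraction of the microglia-like level, and the count minimum. Mossy cell-like and ependymal-like nuclei were too few to compare.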

Additional observations from a re-analysis of the deposited data

Results flagged for a closer look

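Efna5 was at least 2-fold apart in opposite directions in different classes of the same libraries. Its log2 ratio was 1.38 in CA2-like nuclei, from 62 control and 110 labelled knockout UMIs, against -1.67 in dentate granule-like nuclei, from 1828 and 411 UMIs, and -1.09 in astrocyte-like nuclei, from 155 and 58 UMIs. The difference between these classes was not tested, because each genotype was 1 library. The intervals of the CA2-like and dentate granule-like ratios, 0.92 to 1.85 and -1.83 to -1.52, cover counting error only. In the astrocyte-like class both thinned shares lay below the microglia-like share, with overlapping intervals.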

How the results depend on the processing

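No paired analysis was possible because each group was 1 library and the result comes from no test. Over 754 recomputed ligand ratios in 81 combinations of ligand and class, 696 stayed within their counting interval, 58 moved outside it, and 55 more could not be computed. Of the 754, 68 took the other sign and 6 were 0. None of the 68 concerned the 3 ratios past the 2-fold rule, and 4 concerned the 24 ratios whose interval excluded 0: Efna3 in oligodendrocyte-like nuclei with doublets kept (0.07), Efna5 in deep-layer excitatory-like male nuclei (0.14) and inhibitory-like female nuclei (0.07), and Efnb3 in thinned CA1-like nuclei (-0.04). The Efna5 ratio in dentate granule-like nuclei ran from -2.15 to -1.60 over 11 alternatives. It was -1.90 after thinning to 2000 UMIs and -2.15 after subtraction of the microglia-like level, and -1.81 without cluster 6, an alternative chosen after seeing the data, as were those without clusters 27 and 35. In CA2-like nuclei it ran from 1.10 to 1.49, apart from 2.17 in thinned nuclei, where 1 random draw left 0 control UMIs and the control was set to the floor of 3 counts. That value lies above the interval of the full counts, 0.92 to 1.85, and is not a limit on their ratio. In astrocyte-like nuclei it ran from -1.30 to -0.66, under 2-fold in female and in thinned nuclei (-0.76), and the subtraction could not be computed there because the labelled knockout lay at or below the microglia-like level.

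With a minimum of 20 UMIs and none on CPM, genes apart numbered 901 (dentate granule-like, 253 in the main count), 600 (CA3-like, 159) and 1069 (CA1-like, 368), by construction more low counts. In female nuclei they numbered 303 (CA3-like) and 562 (CA1-like), and the cause was not tested. Size factors shifted all ratios by more than 0.1 (log2) in oligodendrocyte-like nuclei only, by 0.11, and turned the median of the EphB list in CA1-like nuclei to -0.05 and of the forward effectors to -0.01 there and to -0.04 in CA3-like nuclei. Efna3 and Efnb1 were under the minimum in all 17 classes. In dentate granule-like nuclei both had over 50 UMIs in the higher library and were under 10 CPM, so that the level and not the depth kept them out there. Depth limited the intervals of Efnb1, which had at most 82 UMIs in a class.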
